A study of Mus musculus with 23 samples.

Results

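Small nucleolar RNAs (snoRNAs) were followed across 23 whole-transcript microarrays of the mouse nucleus accumbens, the ventral striatum. The set holds every gene whose symbol starts with Snord or Snora followed by a digit and that has a probe set carrying that symbol alone. This gave 73 snoRNAs of 22180 named genes, 47 of the box C/D class (Snord) and 26 of the H/ACA class (Snora). Where a gene had several such probe sets the brightest was taken, by its mean over the 23 arrays, and all 73 were tested, with no filter on low values. A further 43 probe sets carried a snoRNA symbol together with other symbols and were left out. The set was chosen by name, but with earlier results of these arrays known, in which Snord37 and Snora20 had stood out in males, so the male values of these 2 are given as a description. The same holds for their contrasts over both sexes, and the counts of members include these values.

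SnoRNAs are short noncoding RNAs of the nucleolus. Box C/D snoRNAs base-pair with ribosomal RNA and guide the methylation of its riboses by the enzyme fibrillarin (Fbl), held in a particle with Nop56, Nop58 and Snu13. H/ACA snoRNAs guide the conversion of uridine to pseudouridine by dyskerin (Dkc1), in a particle with Gar1, Nhp2 and Nop10. In mammals most snoRNAs have no promoter of their own and are trimmed out of introns after a host gene has been spliced, so that the level of the mature snoRNA depends on host transcription, on splicing and on its stability in the particle. An array probe inside an intron can read the unspliced host precursor as well as the mature snoRNA, and they cannot be told apart here. Many hosts encode ribosomal proteins or translation factors, and others are noncoding transcripts named Snhg, for snoRNA host gene.

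The mice were C57BL/6, about 15 weeks old, with 1 array per mouse, and the series calls all samples biological replicates. An adeno-associated virus (AAV) had been injected into the nucleus accumbens about 5 weeks before the region was punched out. In controls the virus carried a scrambled hairpin, and in the knockdown groups a short hairpin RNA against Nr1d1, the gene of the circadian nuclear receptor REV-ERBα, a repressor of transcription. Both viruses were thus delivered in the same way, and nothing in the labels names the promoter of the hairpin or the hour of collection. Of the females 5 were controls and 6 knockdown mice, and of the males 6 were controls and 6 knockdown mice. The label text on treatment mentions a postpartum day of collection for the males as well as the females, and reproductive state was therefore left out. The comparisons ask which transcripts differ after the knockdown in each sex.

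The targeted transcript did not separate the groups. In females the log2 intensity of Nr1d1 was 10.04 ± 0.07 (SD, n = 5) under the control label against 9.99 ± 0.16 (SD, n = 6) under the knockdown label (two-sided exact permutation test, p = 0.563). In males the values were 9.59 ± 0.20 and 9.58 ± 0.13 (SD, n = 6 each, exact permutation p = 0.926). Every contrast below therefore compares arrays labelled knockdown with arrays labelled control. Array medians lay between 6.11 and 6.17 in females and between 5.84 and 5.88 in males, so female and male arrays sit on separate scales and a level cannot be compared between the sexes. A constant offset cancels in each difference within a sex. The arrays carried medium spiny neuron transcripts, with 7 of 10 listed markers measured at 9.54 to 12.75. The mean level of 7 of 8 listed cortical excitatory neuron markers, a sign of neighbouring tissue, varied widely between arrays. It ran from 7.69 to 8.69 in control and 7.48 to 8.74 in knockdown females, and from 6.18 to 8.55 in control and 6.31 to 8.20 in knockdown males, where all 7 were higher in the knockdown group (median difference 0.40). None of the cortical differences had a limma p under 0.05, and their part in the snoRNA values was not tested. In tissue of mixed cells, fewer cells of a type and less RNA per cell cannot be told apart.

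The snoRNAs covered most of the range of the arrays. Their mean levels over all arrays ran from 3.99 to 12.54 with a median of 7.30, and 32 of 73 (43.8%) lay above the upper quartile of all 41345 probe sets while 3 (4.11%) lay below the lower quartile. All 3 dim ones were box C/D. In the RefSeq annotation the box C/D members are 48 to 221 bases long (median 68) and the H/ACA members 56 to 205 bases (median 118.5). The brain-restricted imprinted families Snord115 and Snord116 and their relatives had 0 members with a probe set of their own and were not analysed here. Of the 73, 70 lie within the span of another annotated gene, 62 genes in all, and 6 of them lie in a pair of overlapping genes. Strand was not used, so these are called containing genes. Ribosomal protein genes contain 19 members and Snhg genes or Gas5 contain 13. Snord118 and Snord13, which in mammals are transcribed as independent genes, and Snord89 lie in no other gene. Snord118 serves in the processing of ribosomal RNA precursors.

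The start regions of 4 containing genes are shown because their snoRNAs carry the patterns described below. The transcript 2410006H16Rik contains Snord49a, Snord49b and Snord65, Snhg12 contains Snord99 with 3 H/ACA snoRNAs, Nop58 contains Snord11, and Eef2, the translation elongation factor, contains Snord37. The windows run from 250 bases before to 50 bases after the annotated start, on the plus strand of build GRCm38.p6, and come from RefSeq. They are chr11:62602627-62602926 for 2410006H16Rik, chr4:132308428-132308727 for Snhg12, chr1:59684756-59685055 for Nop58 and chr10:81176381-81176680 for Eef2. Capitals mark an unbroken run of C and T over the start for the first pair, the motif AGGTCA (read here as TGACCT on the other strand) for Nop58 and the motif CACGTG for Eef2.
2410006H16Rik: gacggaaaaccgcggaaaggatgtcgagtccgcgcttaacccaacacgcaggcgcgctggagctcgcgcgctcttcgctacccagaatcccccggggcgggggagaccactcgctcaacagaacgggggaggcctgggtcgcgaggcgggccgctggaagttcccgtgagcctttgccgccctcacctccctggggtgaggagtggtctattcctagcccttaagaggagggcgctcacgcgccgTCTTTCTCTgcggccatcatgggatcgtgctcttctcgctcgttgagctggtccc
Snhg12: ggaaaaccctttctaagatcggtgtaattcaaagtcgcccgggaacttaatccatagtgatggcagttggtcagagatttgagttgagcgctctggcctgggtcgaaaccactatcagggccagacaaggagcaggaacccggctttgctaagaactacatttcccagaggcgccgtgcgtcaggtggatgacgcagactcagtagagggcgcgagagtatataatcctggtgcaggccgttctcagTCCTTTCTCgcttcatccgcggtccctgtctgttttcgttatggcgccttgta
Nop58: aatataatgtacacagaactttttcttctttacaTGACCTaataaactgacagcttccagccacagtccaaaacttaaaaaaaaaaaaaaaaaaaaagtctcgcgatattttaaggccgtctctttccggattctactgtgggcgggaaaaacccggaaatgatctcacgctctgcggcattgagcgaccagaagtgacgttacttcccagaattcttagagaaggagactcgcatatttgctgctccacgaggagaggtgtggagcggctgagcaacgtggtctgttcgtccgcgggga
Eef2: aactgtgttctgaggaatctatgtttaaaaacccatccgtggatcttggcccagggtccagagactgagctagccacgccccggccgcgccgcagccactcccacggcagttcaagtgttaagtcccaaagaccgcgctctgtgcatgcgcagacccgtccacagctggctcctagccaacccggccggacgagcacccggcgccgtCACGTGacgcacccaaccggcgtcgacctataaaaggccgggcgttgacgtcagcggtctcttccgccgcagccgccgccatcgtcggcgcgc
A C and T run over the start is known from transcripts of the translation machinery, whose use follows growth signals. AGGTCA is the core of the REV-ERB site, and CACGTG is the E box bound by CLOCK with BMAL1 and by MYC. Windows were found for 48 of the 62 containing genes, 52 windows in all. A run of at least 6 C or T bases over the start was in 8 of the 52 (15.4%) against 6.55% of all 32851 windows. These were windows of 1110038B12Rik, 2410006H16Rik, Gas5, Gm17344, Gm36220, Ipo7, Snhg12 and Snhg18. No window of a ribosomal protein or translation factor gene was among them. A run was counted only where it crossed the annotated start itself. CACGTG was in 11 of 52 (21.2%) against 7.15%, and AGGTCA on either strand in 6 of 52 (11.5%) against 16.3%. These matches describe the letters in the windows. The arrays did not measure binding.

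SnoRNAs varied more between mice of a group than other genes did. The within-group standard deviation (SD), taken from the model with 1 mean per group, had a median of 0.189 on the log2 scale over the 73 members and 0.120 over all named genes, and 70 of 73 members (95.9%) lay above the latter. The median was 0.195 for box C/D and 0.178 for H/ACA. Bright genes usually vary less, and the members did not follow this. At a mean level of 8 or above the median SD was 0.212 over 26 members and 0.093 over 5956 genes. Below 6 it was 0.186 over 19 members and 0.136 over 9260 genes. Other small or related transcripts lay between, with medians of 0.165 over 472 microRNA precursors (Mir), 0.139 over 5 small Cajal body RNAs (Scarna) and 0.123 over 86 ribosomal protein genes (Rpl, Rps).

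**Figure D1:**
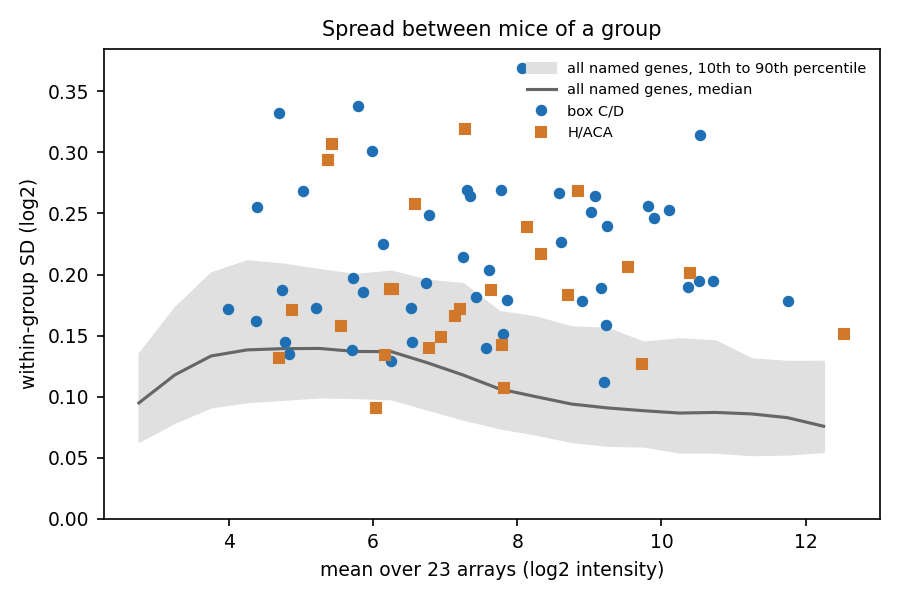
Within-group SD (y axis, log2) against the mean over 23 arrays (x axis, log2 intensity) for 47 box C/D snoRNAs (blue circles) and 26 H/ACA snoRNAs (orange squares), with the median and the 10th to 90th percentile of all named genes as a grey line and band. At levels above 8 most snoRNAs lie above the band, with a median SD of 0.212 against 0.093.

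The widest spread belonged to Snord13, which guides acetylation of the small ribosomal subunit RNA, with an SD of 0.37. Its values in control females were 8.55, 8.32, 8.01, 8.21 and 8.01, and in knockdown females 7.70, 8.69, 7.48, 8.14, 7.75 and 8.16. Knockdown females held both the lowest and the highest value, and the control females lay between them. Next came Snord1b (0.34), Snord72 (0.33), Snora15 (0.32) and Snord99 (0.31). Snord72, which lies in the ribosomal protein gene Rpl37, ran from 4.13 to 5.01 among control females alone. The narrowest were the H/ACA snoRNA Snora68 (0.09), Snora44 and Snord23 (0.11 each), and Snora21 and Snord118 (0.13 each). Snora68 read 6.51, 6.44, 6.30, 6.38 and 6.37 in control females.

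The snoRNAs tended to vary together from mouse to mouse. With each value expressed as a deviation from its group mean, the mean Pearson correlation over the 2628 pairs of members was 0.142, and 67.2% of pairs were positive. The same mean was 0.003 over pairs of all named genes, 0.018 over Mir, 0.088 over Rpl and Rps, and 0.214 over the 5 Scarna genes. These are descriptions over 23 arrays whose points share their RNA, labelling and array. The mean was 0.16 within box C/D, 0.15 within H/ACA and 0.12 between the classes, and 0.17 over female and 0.12 over male arrays. It depended on level: among the 26 members at 8 or above it was 0.31, with 85.5% of pairs positive, against 0.030 for all genes of that level, and among the 19 members below 6 it was 0.06.

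The strongest pairs included members of different genes. Of the 12 strongest pairs 9 were within box C/D and 3 joined the classes. Snord49a and Snord49b, both inside 2410006H16Rik, correlated at 0.91, but Snord49a with Snord99 of Snhg12 gave 0.90. Snord11 of Nop58 correlated at 0.89 with Snord110 of Nop56, the partner protein in the box C/D particle. Snord110 shows the pattern in males: its control values were 10.53, 10.57, 10.62, 10.88, 10.32 and 10.38, and those of Snord11 were 7.30, 7.40, 7.40, 7.69, 7.22 and 7.17, with replicate 4 highest for both. In the knockdown males replicate 1 was lowest for both, at 10.09 and 6.95. The members with the highest mean correlation with the rest were Snord104 (0.34), Snord1b (0.33), Snora15 (0.31), Snord110 and Snord42b (0.30 each). The lowest were Snord88a (−0.18), Snora78 (−0.11), Snora23 (−0.08), Snord37 (−0.05) and Snord88c (−0.04). In all, 61 of 73 members had a mean correlation above 0.

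**Figure D2:**
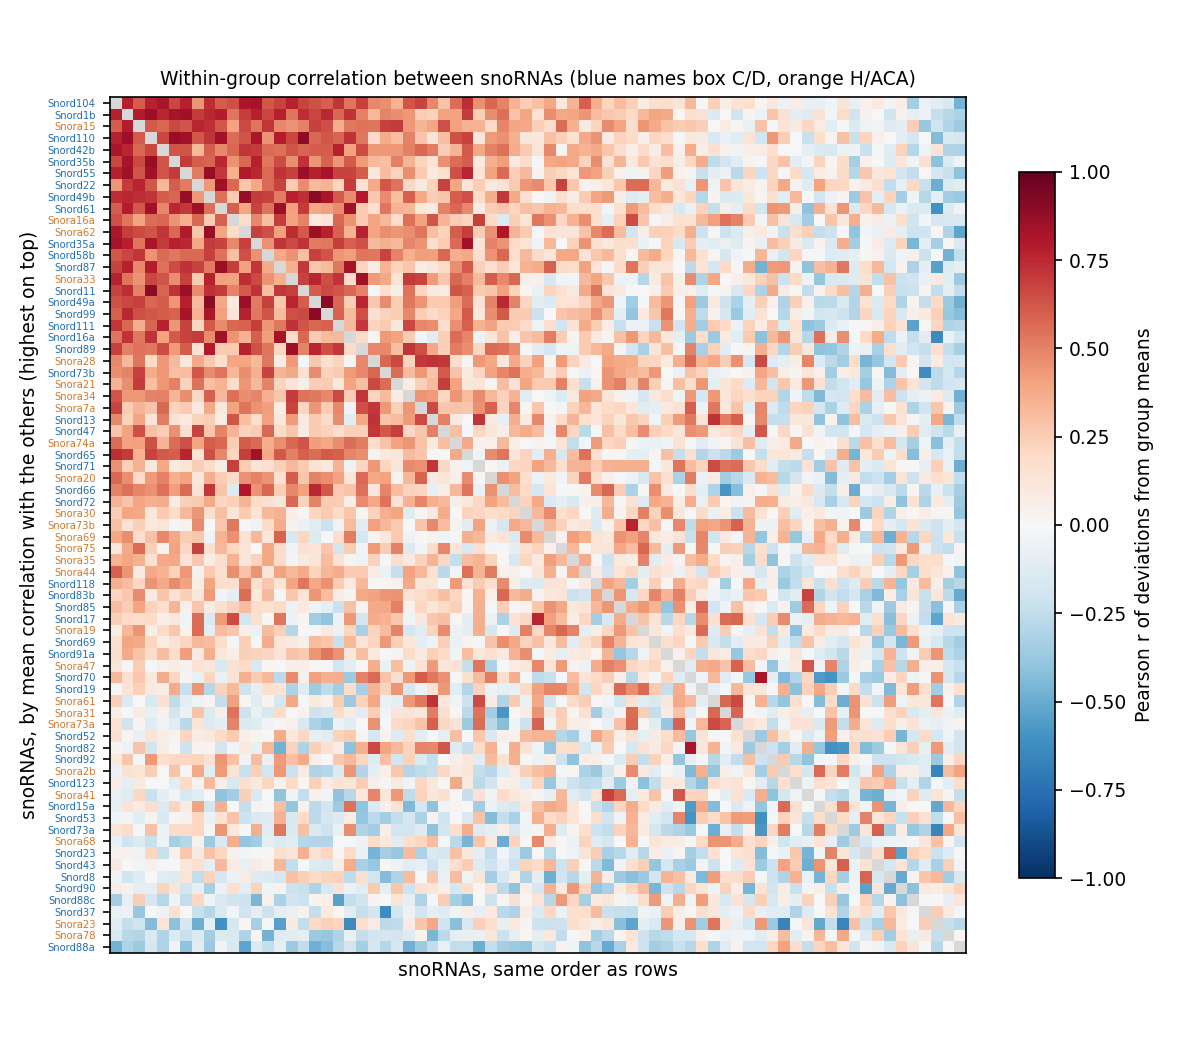
Pearson correlation of within-group deviations over 23 arrays for every pair of the 73 snoRNAs, from −1 (blue) to 1 (red), with rows and columns in the order of the mean correlation with the other members. Box C/D names (blue) and H/ACA names (orange) are mixed along the order, and a red block of covarying snoRNAs fills the top left from Snord104 downward, while Snord88a closes the order at −0.18.

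Members inside one gene were correlated in some genes and not in others. The 18 pairs of members inside one gene had a mean of 0.23, against 0.14 for the 2610 other pairs. Within 2410006H16Rik the 3 pairs ran from 0.56 to 0.91. Snora73a and Snora73b of Snhg3 gave 0.59. The 6 pairs inside Snhg12 ran from 0.04 to 0.46, Snord11 and Snord70 of Nop58 gave 0.05, Snora2b and Snora34 of Kansl2 gave −0.29, and Snord43 and Snord83b of Rpl3 gave −0.44. The snoRNAs tracked the probe set of their own gene little more than those of other containing genes. Over 61 pairs of a member with its measured containing gene the median correlation was 0.10, with 39 pairs positive, and over 3370 pairs with the containing gene of another member it was 0.08. The extremes were 0.74 for Snord87 with Snhg6 and −0.73 for Snora23 with the importin gene Ipo7. Ribosomal protein genes have near-identical copies elsewhere in the genome, so their values are uncertain.

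In females the snoRNAs were on the whole lower on the arrays labelled knockdown. The difference was negative for 54 of 73 members (74.0%), against 47.0% of all probe sets, with a median of −0.095 on the log2 scale and 0.000 over all named genes. Box C/D members were lower in 37 of 47 (78.7%, median −0.119) and H/ACA members in 17 of 26 (65.4%, median −0.055). The difference between the classes was not tested. No single snoRNA passed limma's adjusted threshold of 0.05, nor did any of the 41345 probe sets (0.0%), and the smallest adjusted p among the members was 0.839. At an unadjusted p under 0.05, 8 of 73 (11.0%) were called, 7 lower and 1 higher, against 5.86% of all probe sets, of which 2.51% were lower and 3.35% higher.

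The mean over the 73 members on each array was 7.72, 7.58, 7.48, 7.66 and 7.61 in control females and 7.55, 7.53, 7.42, 7.62, 7.41 and 7.55 in knockdown females. The groups overlapped: control replicate 3 lay below 4 of the 6 knockdown arrays, and knockdown replicate 4 lay above 3 of the 5 controls. The box C/D mean was 7.63 ± 0.10 (SD, n = 5) under the control and 7.50 ± 0.08 (SD, n = 6) under the knockdown label. The H/ACA mean ran from 7.48 to 7.72 and from 7.41 to 7.64. The median of the members was −0.057 without control replicate 1, the array with the highest mean, and it stayed between −0.074 and −0.129 without any other single array.

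**Figure D3:**
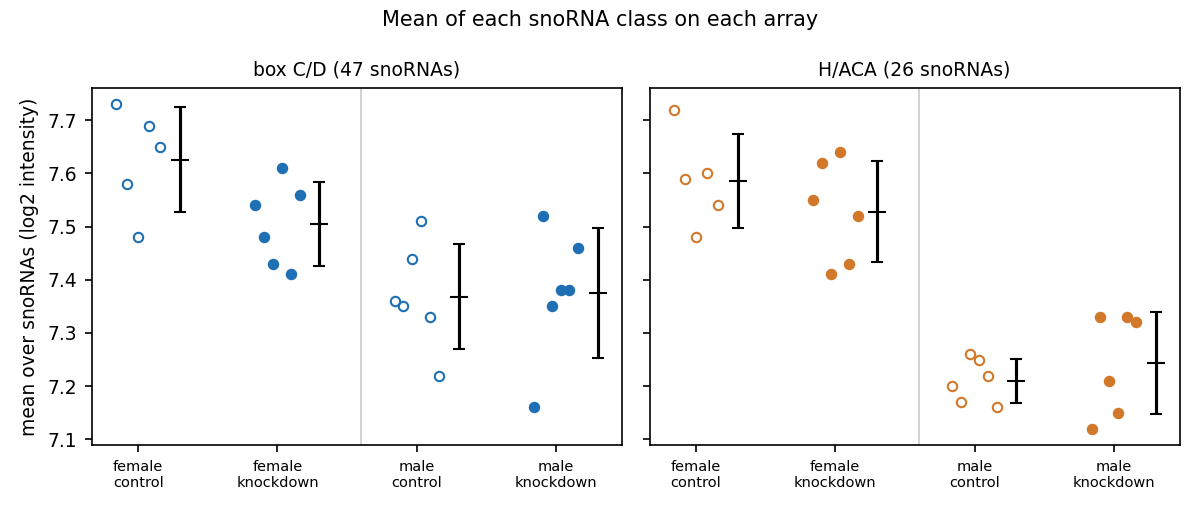
Mean over the 47 box C/D snoRNAs (left) and the 26 H/ACA snoRNAs (right) on each array, in log2 intensity (y axis, not starting at 0), with the group mean and SD as black bars. Knockdown females (filled) lie lower than control females (open) for box C/D, 7.50 against 7.63, with overlap, and the male groups overlap throughout.

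A shift with level ran through all genes on the female arrays, and the snoRNA values stand beside it. Among genes at a level of 8 or above, 67.7% were lower in knockdown females (median −0.027), and among genes below 6 only 33.4% were (median 0.032). The SD over all values of an array was 2.004 to 2.036 in knockdown and 2.041 to 2.044 in control females. SnoRNAs were mostly lower at every level: 76.9% of the 26 at 8 or above (median −0.117) and 78.9% of the 19 below 6 (median −0.047). Of the 28 between 6 and 8, 67.9% were lower (median −0.096), against 56.2% of all genes at that level (median −0.012). With quantile normalization within each sex, which gives all female arrays the same distribution, the median of the members was −0.093. Among related classes, 60 of 86 ribosomal protein genes were lower (69.8%, median −0.068), as were 3 of 5 Scarna genes (median −0.103), while 180 of 472 Mir genes were lower (38.1%, median 0.035).

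The female difference was more negative for snoRNAs that covaried more. Across the 73 members it correlated with the mean correlation with the other members at r = −0.62 (Spearman −0.67), and with the within-group SD at r = −0.60 (Spearman −0.58). These are relations across snoRNAs measured on the same arrays, not across independent samples. Members that share a deviation also share any difference of it between the groups. The relations are therefore not a result separate from the female shift. The correlation with mean level was −0.13 and with length 0.28. In males the same values were 0.15, −0.07, 0.22 and 0.18.

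Among single snoRNAs in females, Snord1b, a box C/D snoRNA of Snhg16, had the largest difference. It read 6.31, 5.74, 5.70, 6.24 and 6.16 in controls and 5.74, 5.22, 5.28, 5.92, 5.24 and 5.74 in knockdown females. All 6 knockdown arrays lay below the control mean, but the groups overlapped, since 2 controls lay at or below 3 of the knockdown arrays. The difference was −0.51 (SE 0.19, 95% interval −0.90 to −0.11, limma adjusted p = 0.839). Snord42b, which lies in the ribosomal protein gene Rpl23a, had the smallest unadjusted p. It read 7.79, 7.70, 7.70, 7.90 and 7.68 in controls and 7.41, 7.52, 7.44, 7.71, 7.31 and 7.60 in knockdown females, and knockdown replicate 4 alone reached the controls. The difference was −0.26 (SE 0.08, limma adjusted p = 0.839).

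Snord49b was 10.06 ± 0.24 in the 5 control and 9.73 ± 0.10 in the 6 knockdown females (SD), a difference of −0.33 (SE 0.14, limma adjusted p = 0.846). Its neighbours in 2410006H16Rik differed in the same direction, the 3 members spanning −0.33 to −0.12, while the probe set of the transcript itself differed by −0.09 (SE 0.06). Snord11, in the gene of the box C/D core protein Nop58, differed by −0.27 (SE 0.12, limma adjusted p = 0.850). Of the H/ACA class, Snora20 differed by −0.25 (SE 0.09), Snora30 of the chromatin remodeller gene Srcap by −0.29 (SE 0.11) and Snora15 of the chaperonin gene Cct6a by −0.39 (SE 0.18), with limma adjusted p of 0.839, 0.839 and 0.850. All 6 knockdown arrays lay below the control mean for each of these 7 lower members, and for 13 of the 73 members in all (17.8%, against 5.09% of all probe sets). No member had all 6 above (0 of 73, against 5.96%).

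Snord23 went the other way. It lies in Nop53, a gene of ribosome assembly, and read 9.30, 9.07, 9.26, 9.25 and 9.27 in controls and 9.46, 9.44, 9.62, 9.20, 9.48 and 9.32 in knockdown females. Only knockdown replicate 4 fell within the controls. The difference was 0.19 (SE 0.07, limma adjusted p = 0.839), and the probe set of Nop53 differed by −0.10 (SE 0.06). Snora47 of Zbed3 was higher by 0.17 (SE 0.08, limma adjusted p = 0.855), Snord91a by 0.15 (SE 0.11), Snord8 by 0.10 (SE 0.11), Snora35, which lies in the serotonin receptor gene Htr2c, by 0.09 (SE 0.11) and Snora73a by 0.07 (SE 0.08). The whole ranges of the control and knockdown groups overlapped for all 73 members, in either direction, where 0.242% of all probe sets were lower and 0.346% higher without overlap. Without control replicate 5 the count of members with a p under 0.05 was 5 in place of 8.

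**Figure D4:**
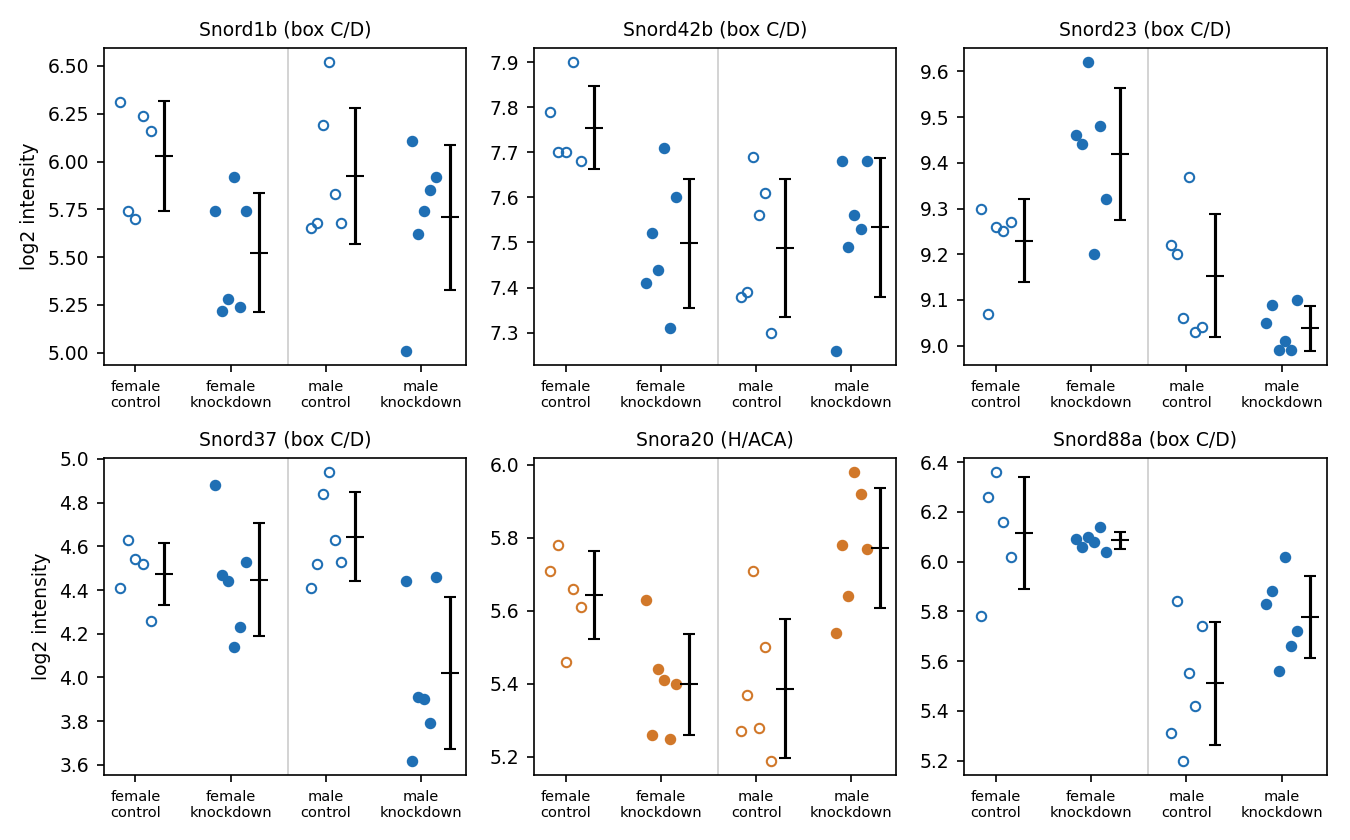
Log2 intensity of 6 snoRNAs on each array (y axes differ and do not start at 0), for control (open) and knockdown (filled) females and males, with the group mean and SD as black bars. Snord1b and Snord42b were lower and Snord23 higher in knockdown females, Snord37 was lower and Snord88a higher in knockdown males, and Snora20 was lower in knockdown females and higher in knockdown males.

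In males the members were divided about evenly. The difference was negative for 31 of 73 and positive for 42, with 49.6% of all probe sets negative, and its median was 0.022 over the members and 0.003 over all named genes. The medians were 0.028 for box C/D and 0.013 for H/ACA. The mean over the 73 members was 7.31, 7.29, 7.37, 7.42, 7.29 and 7.20 in controls and 7.15, 7.45, 7.30, 7.30, 7.36 and 7.41 in knockdown males. Knockdown replicate 1 was the lowest array and replicate 2 the highest, so one group spanned the other. Without knockdown replicate 2 the median of the members was −0.019, and without replicate 1 it was 0.056, so its sign rests on single arrays. No probe set passed limma's adjusted threshold (0.0%), and the smallest adjusted p among the members was 0.767. At an unadjusted p under 0.05, 7 members were called, 3 lower and 4 higher, 9.59% against 4.71% of all probe sets (2.51% lower, 2.21% higher). The count was 4 without control replicate 4.

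Snord37, the box C/D snoRNA in Eef2, had the largest male difference. It read 4.41, 4.52, 4.84, 4.94, 4.63 and 4.53 in controls and 4.44, 3.62, 3.91, 3.90, 3.79 and 4.46 in knockdown males. Knockdown replicates 1 and 6 reached the lowest control, and the other 4 lay well below it. The difference was −0.63 (SE 0.14, 95% interval −0.91 to −0.34, limma adjusted p = 0.767), which is −35.2% in the geometric mean of intensity. Its mean over all arrays was 4.39. The probe set of Eef2 differed by −0.02 (SE 0.04) in males, and in females Snord37 itself differed by −0.02 (SE 0.15).

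Snora20, an H/ACA snoRNA inside the chaperonin gene Tcp1, read 5.27, 5.37, 5.71, 5.28, 5.50 and 5.19 in control males and 5.54, 5.78, 5.64, 5.98, 5.92 and 5.77 in knockdown males. All 6 knockdown arrays lay above the control mean, and control replicate 3 alone reached them. The difference was 0.39 (SE 0.09, 95% interval 0.20 to 0.57, limma adjusted p = 0.809), and the probe set of Tcp1 differed by 0.01 (SE 0.04). Also higher were Snord88a by 0.27 (SE 0.10), Snora7a of Rpl32 by 0.22 (SE 0.08) and Snord82 of the nucleolin gene Ncl by 0.21 (SE 0.10), each with all 6 knockdown arrays above the control mean. Lower were Snora19 of Eif3a, by −0.18 (SE 0.08), and Snora47, by −0.18 (SE 0.08). The limma adjusted p of each of these 5 was 0.996. With a larger unadjusted p came Snord89, which lies in no other gene, at 0.22 (SE 0.12) and Snora44 of Snhg12 at 0.11 (SE 0.06), and on the other side Snord23 at −0.12 (SE 0.07), Snora61 of Snhg12 at −0.16 (SE 0.09) and Snord92 of Wdr43 at −0.15 (SE 0.09). In all, 5 members had all 6 knockdown males below the control mean and 5 had all 6 above (6.85% each, against 4.68% and 4.53% of all probe sets). For all 73 members the whole ranges of the male groups overlapped, against 0.0556% of all probe sets lower and 0.0532% higher without overlap.

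Set side by side, 39 of the 73 snoRNAs (53.4%) had opposite signs in the sexes, a share near the 50.3% of all probe sets. Lower in both sexes were 23 members (31.5%, against 22.8% of all probe sets), and lower in females and higher in males were 31 (42.5%, against 23.8%). A further 11 were higher in both (15.1%, against 25.9%) and 8 were higher in females and lower in males (11.0%, against 26.5%). These shares mostly restate the share lower in females, 74.0% of members against 47.0% of all probe sets. The contrast of the male with the female difference is built from the same arrays as the single-sex contrasts and tests the difference itself. It was positive for 54 members and negative for 19, with a median of 0.129, and 52.5% of all probe sets were negative. No probe set passed the adjusted threshold in limma (0.0%). At an unadjusted p under 0.05, 9 members were called, 3 lower and 6 higher, 12.3% against 5.70% of all probe sets (3.12% lower, 2.59% higher).

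**Figure D5:**
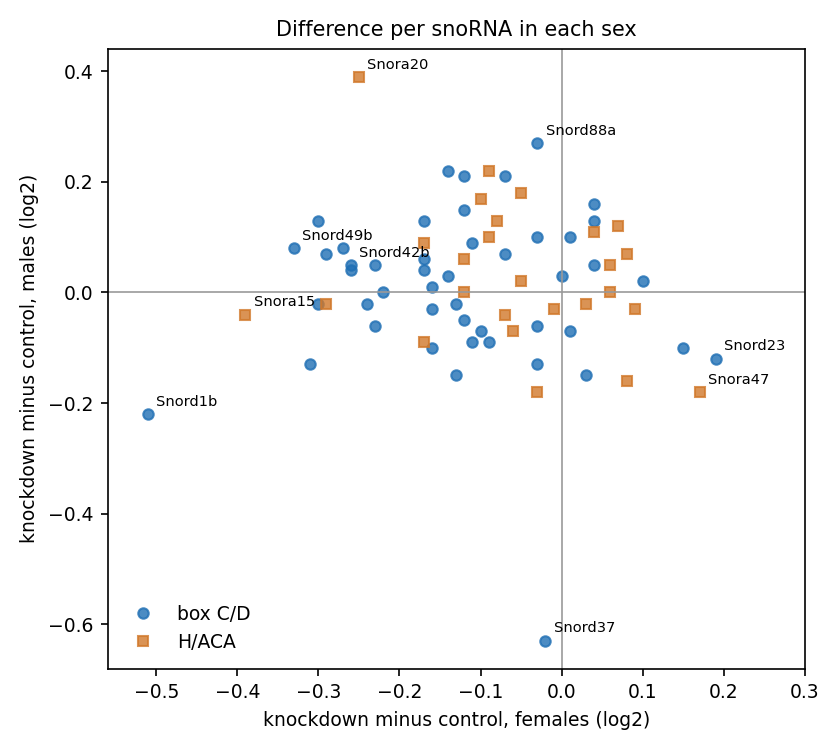
Knockdown minus control in females (x axis, log2) and in males (y axis, log2) for each of the 73 snoRNAs, box C/D as blue circles and H/ACA as orange squares. Most points lie left of 0 on the x axis (54 of 73), and Snora20 (−0.25 and 0.39) and Snord37 (−0.02 and −0.63) stand apart on the y axis.

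Snora20 had the smallest p of this contrast among the members. Every knockdown female lay below the mean of the control females and every knockdown male above the mean of the control males. The male difference exceeded the female one by 0.63 (SE 0.13, 95% interval 0.36 to 0.90, limma adjusted p = 0.376). Of the 73 members Snora20 alone (1.37%) had an unadjusted p under 0.05 in each sex. The share of all probe sets with this was not counted. Snord23 differed in the other direction, by −0.31 (SE 0.10), as did Snora47, by −0.35 (SE 0.12), and Snord37, by −0.60 (SE 0.20), each with a limma adjusted p of 0.845. Snord42b (0.30), Snora7a (0.31), Snord35a (0.30), Snord11 (0.35) and Snord49b (0.41) were the others with a p under 0.05. Snord35a, of the ribosomal protein gene Rpl13a, is one of the snoRNAs of that gene known from work on lipid-induced cell stress.

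In the average of both sexes 46 members were lower and 27 higher (47.9% of all probe sets lower), with a median of −0.043. The members with a p under 0.05 were Snord37, at −0.32 (SE 0.10), and Snord1b, at −0.36 (SE 0.13), both with a limma adjusted p of 0.98. The average for Snord37 includes its male values, known from earlier results, and is a description. These 2 are 2.74% of the members, against 4.71% of all probe sets (2.12% lower, 2.59% higher, and 0.0% past the adjusted threshold). The count moved with single arrays, from 2 to 8 when male control replicate 6 was left out, to 6 for female knockdown replicate 4 or male knockdown replicate 2, to 5 for male control replicate 2, and to 4 for female control replicate 3 or 4, female knockdown replicate 2 or 5 or male knockdown replicate 3.

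The genes of the proteins that make and hold snoRNAs were mostly lower in knockdown females too. Of 20 listed core and assembly proteins 19 were measured, fibrillarin not among them, and 14 were lower in knockdown females (73.7%, median −0.058), against 47.0% of all probe sets. Their median level was 7.59. Among all genes 56.2% at levels of 6 to 8 and 67.7% at 8 or above were lower, and the part of level in the share of this list was not tested. In each sex 2 of the 19 (10.5%) had an unadjusted p under 0.05, against 5.86% of all probe sets in females and 4.71% in males, and none passed limma's adjusted threshold. In females the core proteins Snu13 at −0.12 (SE 0.06), Nop58 at −0.13 (SE 0.08) and Nop56 at −0.07 (SE 0.05), and dyskerin (Dkc1) at −0.10 (SE 0.05), had a limma p above 0.05. The 5 higher ones also had a p above 0.05. Among these were the assembly factor Shq1 at 0.17 (SE 0.08) and the core proteins Rrp9 at 0.01 (SE 0.07) and Gar1 at 0.00 (SE 0.07). The assembly factors Naf1, at −0.18 (SE 0.08), and Nufip1, at −0.08 (SE 0.04), were the pair with an unadjusted p under 0.05. In males the H/ACA core protein Nop10 differed by 0.10 (SE 0.05) and the assembly factor Rpap3 by −0.13 (SE 0.05), the pair with an unadjusted p under 0.05 there, and the median of the list was −0.003.

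The containing genes were mostly lower in knockdown females as well. Of 47 measured, 35 were lower (74.5%, median −0.062). Their median level was 8.96, and among all genes at 8 or above 67.7% were lower. A limma p under 0.05 was found for 4 of them (8.51%, against 5.86% of all probe sets): the translation factors Eef1b2 at −0.13 (SE 0.05) and Eef2 at −0.10 (SE 0.05), Gnl3, the gene of nucleostemin, at −0.13 (SE 0.06), and Rpl39 at −0.20 (SE 0.08). In males 21 were lower and 26 higher (median 0.015), with Rpl37 at 0.23 (SE 0.10) and Zbed3 at 0.19 (SE 0.09) under that p (4.26%, against 4.71% of all probe sets). The male value of Zbed3 is opposite in sign to that of Snora47 inside it. Of 21 noncoding host genes 18 were measured and 11 were lower in females (median −0.029), with Zfas1 at −0.19 (SE 0.07) the one of 18 (5.56%) with an unadjusted p under 0.05. In males Snhg14, at −0.17 (SE 0.07), and Snhg11, at −0.12 (SE 0.06), had a limma p under 0.05. These were 2 of 18 (11.1%, against 4.71% of all probe sets), each with a limma adjusted p of 0.996. Among the Scarna genes, which guide modification of spliceosomal RNA, Scarna10 differed by −0.15 (SE 0.06) in females and 0.14 (SE 0.06) in males, each with an unadjusted p under 0.05 and with the same pair of signs as Snora20.

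A single snoRNA was read by a pair of differing probe sets. For Snora33, which lies in Rps12, the bright probe set (mean 12.54) differed by −0.08 (SE 0.09) in females and 0.13 (SE 0.09) in males, and the dim one (mean 5.48) by −0.17 (SE 0.08) and −0.06 (SE 0.08), so they disagreed in sign in males. No member shared identical values with another member. Snora19, Snora21 and Snora28 each shared theirs on every array with a further probe set.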

How the data were processed

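RNA was isolated with a kit for fatty tissue and labelled with a whole-transcript kit, per the labels. The authors deposited 1 log2 intensity per probe set and array, made with Transcriptome Analysis Console per the submitters' processing notes. Its version, normalization and genome build were not given in the sources used here. Column medians differ between the sexes. Whether the sexes were processed separately is not known here, and sex and processing cannot be told apart. Probe sets were named by the array's annotation table, and containing genes by span in the RefSeq table (GRCm38.p6, names and overlaps only).

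All 41345 probe sets on 23 arrays entered 1 fit with limma 3.58.1 (R 4.3.3), 1 mean per group and default empirical Bayes (19 residual and 3.24 prior degrees of freedom), tested on simulated data. Tests were two-sided with Benjamini-Hochberg adjustment over all probe sets and a threshold of 0.05. Within-group correlations used numpy 2.4.6 on deviations from group means. The number of arrays limits the precision. Depth is not defined for arrays.

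The members and lists were chosen with earlier results of these data known. Named members are those with the 6 smallest p on each side of each contrast and the 5 extremes of SD and of correlation, with Snord37 and Snora20. Same-numbered arrays of a sex did not deviate together, so no block was used. Alternatives were normalization, probe set choice, array weights, trend and robust settings, sexes fitted alone, dim probe sets left out, a replicate block and each array left out.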

Additional observations from a re-analysis of the deposited data

Results flagged for a closer look

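Of 172 sets of arrays (the 40 named members and 3 class means in each of 4 groups), 11 held an array that stood apart from the rest of its group by Dixon's criterion, and about 5% of sets do so when nothing sets them apart. In control females 1 array read Snord23 at 9.07 (the others 9.25 to 9.30), 1 read Snord52 at 5.00 (the others 5.38 to 5.41) and 1 read Snord8 at 9.24 (the others 9.02 to 9.04). In knockdown females 1 array read Snord49b at 9.53 (the others 9.73 to 9.84) and 1 read Snord8 at 8.77 (the others 9.13 to 9.30). In control males 1 array read Snora35 at 8.01 (the others 8.46 to 8.71), 1 read Snord88c at 7.87 (the others 7.64 to 7.70) and 1 read Snord92 at 4.10 (the others 4.35 to 4.44). In knockdown males 1 array read Snora44 at 7.95 (the others 7.64 to 7.74), 1 read Snord110 at 10.09 (the others 10.57 to 10.81) and 1 read Snord118 at 6.63 (the others 6.08 to 6.23).

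Snora20 differed between the sexes in its knockdown contrast by 0.63 on the log2 scale. All 6 knockdown females lay below and all 6 knockdown males above their control mean, and the limma adjusted p of the difference was 0.376. Taken singly, the former held for 5.09% and the latter for 4.53% of all probe sets, and the share with both was not counted. Its male values were known from earlier results, so this is a description.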

How the results depend on the processing

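Under the alternatives run the within-group SD stayed between 0.185 and 0.194 and the mean pairwise correlation between 0.123 and 0.150. Their movement was measured against an error computed from the same values with each array left out, which could hardly be exceeded. The medians moved by less than the SD of array means within a group. Leaving out 1 array moves a median by only part of that SD, so this check is weak, and the male median changed sign. The female median ran from −0.129 to −0.057 and the male median from −0.019 to 0.056 with each array left out. The counts of members with a limma p under 0.05 ran, with each array left out, from 5 to 12 in females, 4 to 8 in males, 2 to 8 in the average and 6 to 13 for the male minus female difference. The replicate numbers of the labels did not pair the arrays: the correlation of deviations exceeded 0.1 in 2 of 11 same-numbered pairs (−0.10 to 0.14). With the replicate block the counts were 13 in females (11 lower), 5 in the average and 15 for male minus female. Without probe sets below the lower quartile of mean level the average count was 1. Snord37 in females turned to 0.06 with array weights and ran from −0.11 to 0.04 with each array left out. Nr1d1 in males ran from −0.05 to 0.04. The cause was not tested. Over the alternatives the smallest adjusted p of any of the 73 members was 0.423 in females (Snord42b), 0.204 in males (Snord37), 0.844 in the average (Snord1b) and 0.0913 for male minus female (Snora20), so no member passed 0.05 in any of them. No members had identical values, so leaving out shared values gave nothing to compare, and fitting the sexes alone gives no contrast over both.

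The scanner files and signal over background were not used here, so dim members such as Snord37 have an unknown distance from background.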
